A study of Mus musculus with 6 samples.

Results

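Transcripts of 10 endothelial genes, Pecam1, Stab1, Stab2, Lyve1, Clec4g, Fcgr2b, Cd34, Plvap, Vwf and Kdr, were examined in whole livers of mice carrying a hepatocyte guide RNA against Prdx2 or a control guide RNA. The genes were listed by name, as known markers of liver sinusoidal and of other vascular endothelium. They are 10 of 52459 genes in the count table, and all 10 were among the 17032 genes with enough counts to be tested. The contrast of interest set the sinusoidal identity genes Stab2, Lyve1, Clec4g and Fcgr2b against the vascular genes Cd34, Plvap and Vwf.

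Livers came from 6 male C57BL6J Alb-Cre/Cas9 F1 mice, 3 given AAV8-U6-sgCtrl, a control guide (mice 5.1, 7.1 and 7.2) and 3 given AAV8-U6-sgPrdx2 (mice 1.1, 1.3 and 3.2) by vein at 4 to 5 weeks of age. All 6 received diethylnitrosamine (DEN, a liver carcinogen) at 100 mg/kg 3 weeks later. From 1 week after DEN all were kept for 6 months on CDAHFD, a choline-deficient high-fat diet that produces steatohepatitis with fibrosis, and livers were taken at 8 months of age. Both groups thus carried the vector, Cas9, the carcinogen and the diet, and no liver without injury was compared. The albumin promoter restricts Cre, and with it Cas9, to hepatocytes, so endothelial cells were not the cells meant to be edited. RNA was taken from whole frozen liver.

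The liver sinusoid is lined by a specialized endothelium with open pores and no organized basement membrane, which clears waste molecules from blood through scavenger receptors. In chronic injury this lining is known to lose pores and scavenger receptors and to gain genes of continuous capillaries together with a basement membrane, a change called capillarization. Stab2, Lyve1, Clec4g and Fcgr2b are used as markers of the sinusoidal state, and Cd34, Plvap and Vwf as markers of continuous, venous or capillarized vessels.

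Total counts per liver ranged from 37462102 to 56865293, and no pair of livers was a copy of another. Prdx2 itself was at 109, 117 and 132 CPM (counts scaled to library size by TMM) in sgCtrl livers 5.1, 7.1 and 7.2 and at 99.0, 112 and 149 CPM in livers 1.1, 1.3 and 3.2, of the sgPrdx2 group. Group means of Prdx2 were 119 ± 11.6 and 120 ± 26.1 CPM (SD, n = 3 each, two-sided exact permutation p = 1). Transcript counts in whole liver measure neither indels nor protein, so they do not check the edit, and groups were taken from the labels. Liver 3.2 stood apart from the other 5 on the first principal component, which held 44.9% of the variance (61.0, against 19.7 and 10.9 in the other sgPrdx2 livers and -39.4 to -26.0 in sgCtrl), so values are also given without it.

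Sinusoidal and vascular transcripts were all detected in every liver. Per kilobase of exon the order in sgCtrl livers ran from Plvap, which forms the diaphragms of endothelial pores, at 53.6 ± 6.21 RPKM (CPM per kilobase, SD, n = 3) to Vwf, the clotting protein stored in endothelial granules, at 1.302 ± 0.407 RPKM. Clec4g, a sinusoidal lectin, came second at 26.6 ± 3.87 RPKM. Fcgr2b and Stab1 lay together at 14.8 ± 1.23 and 14.5 ± 0.532 RPKM, with Fcgr2b above Stab1 in only 3 of 6 livers. Stab2 at 6.54 ± 1.44, Cd34 at 5.46 ± 0.695, Lyve1 at 5.43 ± 1.09 and Pecam1 at 5.35 ± 0.260 RPKM did not differ from their neighbours in that order beyond the spread (two-sided exact permutation p from 0.75 to 1, by sign flips within livers). Kdr followed at 3.06 ± 0.325 RPKM, below Pecam1 in all sgCtrl livers (exact permutation p = 0.25, the smallest that sign flips over 3 livers allow). In sgPrdx2 livers Lyve1 was at 2.31 ± 0.906 RPKM, below Pecam1 in 3 of 3 livers and below Kdr in only 1 of 3.

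The scavenger receptors Stab1 and Stab2 are paralogs, and their transcripts differed in the sign of their fold change. Neither had an adjusted p under 0.05 (0.264 and 0.506 by edgeR's quasi-likelihood test). Cd34 was the vascular gene with no overlap between groups and with a promoter among those used here. Its adjusted p was 0.211 by the same test, and 17.5% of all genes tested were also lower without overlap. For the paralogy and for that lack of overlap, the 250 bases upstream of a RefSeq start of each of these 3 genes are shown. They are given in the direction of the gene (RefSeq, GRCm38.p6). The outer ends of Stab1 (31168651) and Stab2 (87008038) fall inside their windows, so those windows lie partly within the gene. Capitals mark GGAAG, the core recognized by ETS factors, a family that includes regulators of endothelial genes, or its reverse complement CTTCC. The windows are chr14:31168642-31168891 on the minus strand for Stab1, chr10:87007943-87008192 on the minus strand for Stab2 and chr1:194938571-194938820 on the plus strand for Cd34.
Stab1: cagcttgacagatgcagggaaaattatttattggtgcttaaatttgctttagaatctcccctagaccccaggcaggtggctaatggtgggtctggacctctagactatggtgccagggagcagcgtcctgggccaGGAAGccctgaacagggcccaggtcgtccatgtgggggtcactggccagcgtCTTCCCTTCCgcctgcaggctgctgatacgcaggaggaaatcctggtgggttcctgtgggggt
Stab2: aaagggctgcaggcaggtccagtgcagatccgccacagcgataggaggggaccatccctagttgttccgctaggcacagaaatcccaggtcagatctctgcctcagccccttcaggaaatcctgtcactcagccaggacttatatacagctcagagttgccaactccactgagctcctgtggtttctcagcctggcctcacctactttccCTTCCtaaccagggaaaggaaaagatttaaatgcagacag
Cd34: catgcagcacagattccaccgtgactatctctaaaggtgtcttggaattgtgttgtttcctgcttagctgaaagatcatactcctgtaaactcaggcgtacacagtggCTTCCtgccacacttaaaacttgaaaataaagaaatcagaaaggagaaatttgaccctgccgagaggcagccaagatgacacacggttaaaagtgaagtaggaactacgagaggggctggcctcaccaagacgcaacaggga
RefSeq promoters, counted from 250 bases before to 50 bases after the start, matched 6 of the 10 genes, Cd34, Clec4g, Fcgr2b, Kdr, Stab1 and Stab2. Promoters of Lyve1, Pecam1, Plvap and Vwf were not used here. GGAAG on either strand was found in all 6, with 3 matches each in Clec4g, Fcgr2b and Stab1 and 1 each in Cd34, Kdr and Stab2. It is present in 71.4% of 32851 promoters of this length. The longer word CAGGAAG, which contains GGAAG, was found in Stab1 and Cd34 and in 13.3% of all promoters. AGATAA, a word bound by GATA factors such as the sinusoidal regulator Gata4, was found in none of the 6 windows and in 11.2% of all promoters. TATAAA was found in Clec4g alone of the 6 and in 13.6% of all promoters. The Kdr promoter held 19 CG dinucleotides, against 4 to 7 in the other 5 and a median of 7 over all promoters. A match is a word in the sequence and says nothing of binding in these livers.

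Among the 4 sinusoidal identity genes, Lyve1 had the lowest ratio, Fcgr2b was lower by a smaller amount, and Clec4g and Stab2 overlapped between groups. No sinusoidal identity gene was called, that is, none had a Benjamini-Hochberg adjusted p under 0.05 over all genes tested in edgeR's quasi-likelihood test.

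Lyve1, a hyaluronan receptor of sinusoidal and lymphatic endothelium (chr7:110850607-110862953), was at 13.04, 15.2 and 19.3 CPM in sgCtrl livers 5.1, 7.1 and 7.2 and at 7.02, 9.23 and 3.96 CPM in sgPrdx2 livers 1.1, 1.3 and 3.2. All sgPrdx2 livers lay below all sgCtrl livers, and liver 3.2 was the lowest. The ratio of means was 0.427, the log2 fold change was -1.23 (SE 0.30, 95% interval -1.91 to -0.54) and the adjusted p was 0.0639 by edgeR's quasi-likelihood test. In whole liver, fewer cells of a type and less RNA per cell cannot be told apart, for Lyve1 as for every gene that follows. Without liver 3.2 the log2 fold change of Lyve1 was -0.95 (adjusted p = 0.0566). The call depended on the test. Lyve1 passed at an adjusted p of 0.00154 in DESeq2, which called 6.07% of 14799 genes lower, at 0.0184 with no filter on low counts and at 0.0493 with a correction for transcript length and GC content.

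Fcgr2b encodes an inhibitory Fc receptor that takes up small immune complexes in sinusoidal endothelium and is also made by B cells and macrophages (chr1:170960558-170976071). It was at 92.7, 86.2 and 78.5 CPM in sgCtrl and 77.8, 70.0 and 61.1 CPM in sgPrdx2 livers. The groups did not overlap, by a margin of less than 1 CPM between sgCtrl 7.2 and sgPrdx2 1.1. The log2 fold change was -0.30 (SE 0.14, 95% interval -0.63 to 0.03, adjusted p = 0.234 by edgeR's quasi-likelihood test). Of its 5685 transcript stretches of 50 bases, 6.95% also occur in other genes, most often in Fcgr3, the highest share among the 10 genes, so some of its reads could have been counted elsewhere or dropped.

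Clec4g, a C-type lectin largely restricted to sinusoidal endothelium (chr8:3707066-3720695), was at 58.2, 61.9 and 76.3 CPM in sgCtrl and 63.4, 59.6 and 57.1 CPM in sgPrdx2 livers. The groups overlapped, and the interval of its log2 fold change of -0.13 ran from -0.45 to 0.20 (SE 0.14, adjusted p = 0.608 by edgeR's quasi-likelihood test). Stab2, the hyaluronan scavenger receptor of the sinusoid (chr10:86841194-87008038), was at 50.9, 71.8 and 49.1 CPM in sgCtrl and at 87.5, 69.5 and 49.7 CPM in sgPrdx2 livers. It was the only member with a positive log2 fold change, 0.27 (SE 0.24, 95% interval -0.28 to 0.81, adjusted p = 0.506 by the same test). The sgPrdx2 livers spread over a wider range of Stab2 than the difference between groups, with liver 1.1 above all others and liver 3.2 within the sgCtrl range. Scaled to housekeeping genes, the log2 fold change of Stab2 was -0.08, with the other sign, and without liver 3.2 it was 0.47 (adjusted p = 0.20).

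The 3 vascular genes were also all on the low side in sgPrdx2 livers, and none was called. Vwf (chr6:125552948-125686679) was at 28.3, 15.9 and 18.5 CPM in sgCtrl and 10.9, 10.9 and 15.8 CPM in sgPrdx2 livers. Its groups met within 0.2 CPM, at sgCtrl 7.1 and sgPrdx2 3.2, without overlapping, and sgCtrl 5.1 was the highest liver. The log2 fold change was -0.74 (SE 0.25, 95% interval -1.32 to -0.17, adjusted p = 0.125 by edgeR's quasi-likelihood test). It was -0.46 without sgCtrl 5.1 (adjusted p = 0.314) and -0.93 without sgPrdx2 3.2 (adjusted p = 0.0825). Vwf passed in DESeq2 (adjusted p = 0.0449) and with housekeeping scaling (adjusted p = 0.0401).

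Cd34, a sialomucin of continuous endothelium that also marks fibroblasts and progenitor cells (chr1:194938821-194961292), was at 43.9, 34.1 and 41.3 CPM in sgCtrl and 32.7, 33.3 and 31.5 CPM in sgPrdx2 livers. The 3 sgPrdx2 livers lay close together just below sgCtrl 7.1. The log2 fold change was -0.29 (SE 0.13, 95% interval -0.59 to 0.01, adjusted p = 0.211 by edgeR's quasi-likelihood test). Plvap (chr8:71497753-71511806) was at 93.0, 109 and 117 CPM in sgCtrl and 99.9, 96.6 and 96.8 CPM in sgPrdx2 livers. These groups overlapped, with a log2 fold change of -0.12 (SE 0.13, 95% interval -0.43 to 0.19, adjusted p = 0.594).

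Pecam1, the CD31 adhesion molecule made by endothelium and also by platelets and some leukocytes (chr11:106654213-106715281), was the only member called. It was at 35.2, 32.3 and 32.4 CPM in sgCtrl livers and 21.0, 21.7 and 15.8 CPM in sgPrdx2 livers. The sgCtrl livers agreed within 3 CPM, and every sgPrdx2 liver was at least 10 CPM lower. Pecam1 fell by 0.77 on the log2 scale (ratio of means 0.586, SE 0.15, 95% interval -1.11 to -0.43, adjusted p = 0.0423 by edgeR's quasi-likelihood test). It held without liver 3.2 (log2 fold change -0.63, adjusted p = 0.0376). It was lost without sgCtrl 5.1 (adjusted p = 0.129), 7.1 (0.0688) or 7.2 (0.157) and without sgPrdx2 1.1 (0.147) or 1.3 (0.0805), with log2 fold changes from -0.84 to -0.73. Leaving out 4 of these 5 livers, all but sgCtrl 7.1, left no gene called in the whole table.

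Stab1, a scavenger receptor shared by sinusoidal endothelium and macrophages (chr14:31139017-31168651), was at 153, 151 and 143 CPM in sgCtrl and 119, 126 and 133 CPM in sgPrdx2 livers. The groups did not overlap, and here liver 3.2 was the highest of the sgPrdx2 livers. The log2 fold change was -0.24 (SE 0.12, 95% interval -0.52 to 0.04, adjusted p = 0.264 by edgeR's quasi-likelihood test). Kdr, the main VEGF receptor of endothelium (chr5:75932827-75979072), was at 26.7, 31.0 and 25.3 CPM in sgCtrl and 30.6, 25.6 and 11.7 CPM in sgPrdx2 livers. Only liver 3.2 lay below the sgCtrl range, and the log2 fold change of -0.29 (SE 0.31, 95% interval -0.998 to 0.42, adjusted p = 0.590) became 0.03 without it.

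**Figure D1:**
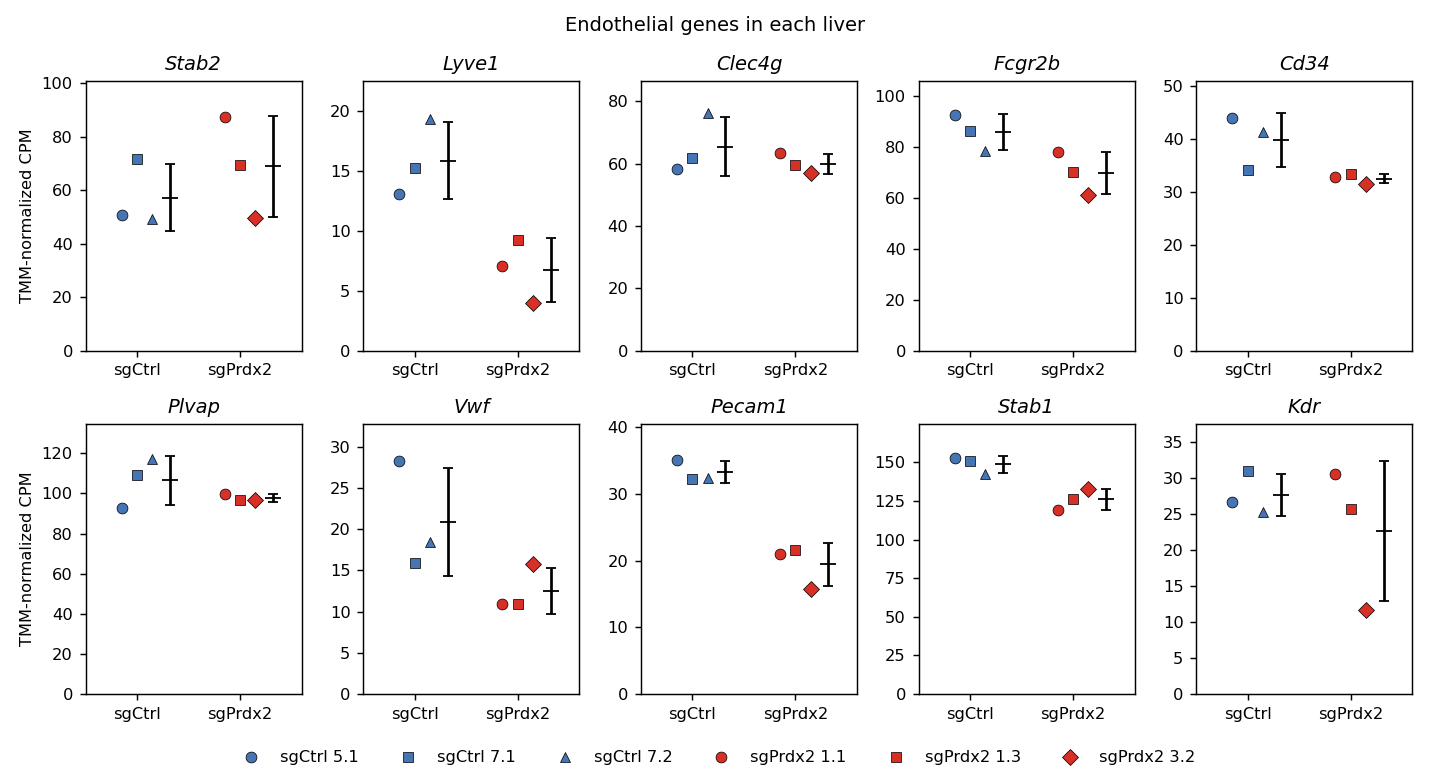
CPM after TMM normalization (vertical axes, from 0) of each of the 10 genes in each of the 6 livers, with the mean and SD of the 3 livers of a group beside the points. The sgPrdx2 livers lie below all sgCtrl livers for Lyve1, Fcgr2b, Cd34, Vwf, Pecam1 and Stab1, and Kdr is low in liver 3.2 alone.

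Over the 10 genes, 9 had a log2 fold change below 0 and 6 were lower in every sgPrdx2 liver than in every sgCtrl liver, a pattern seen in 17.5% of all genes tested. None was higher in every sgPrdx2 liver, against 16.7% of all genes. Called genes made up 3.33% of those tested, 1.54% lower and 1.79% higher, and among the members there was 1 called lower (Pecam1) and 0 called higher. At an unadjusted p under 0.05, 3 members passed (Pecam1, Lyve1 and Vwf), beside 24.9% of all genes. DESeq2 called the same 3 and none higher. The median log2 fold change of the members was -0.29, beside -0.02 for all genes. The members share endothelial cells as their source, so they are not independent of each other.

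Scaling and liver 3.2 moved these values together. Scaled to 6 housekeeping genes, the median of all genes moved to -0.38 and the calls were 70 higher and 919 lower, against 305 higher and 262 lower with TMM, and the median of the members moved to -0.63. Relative to the median of all genes, 9 of 10 members were low under both scalings. Rescaling the libraries moves all genes nearly alike, so that count could hardly have differed. Liver 3.2 also had a trend of counts with transcript length and GC content, which by the fit lowered its Cd34 by 0.33 and its Kdr by 0.26 and raised its Plvap by 0.39 on the log2 scale. After correction for that trend in each library, the median of the members was -0.19, Cd34 was at -0.12, Plvap at -0.31 and Lyve1 at -1.23. Pecam1 and Lyve1 were called lower in that fit.

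**Figure D2:**
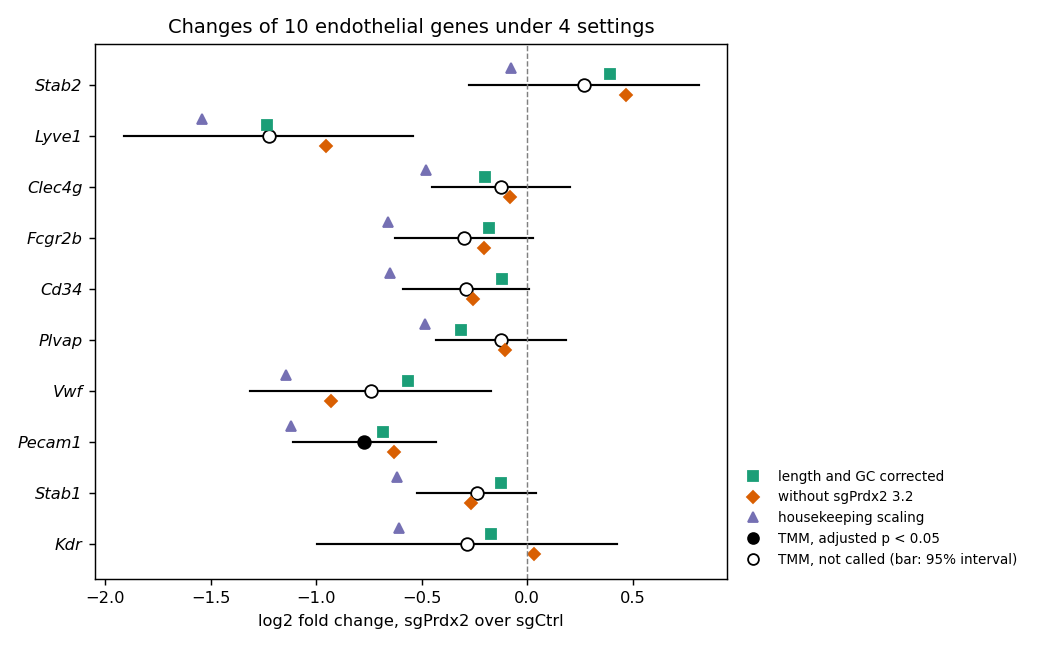
Log2 fold change of each gene, sgPrdx2 over sgCtrl (horizontal axis), as circles with 95% intervals from edgeR's fit on 6 livers, and as colored symbols after correction for transcript length and GC content, without sgPrdx2 liver 3.2, or scaled to housekeeping genes. Pecam1, the filled circle, is the only member called with TMM, and Stab2 lies on the positive side except under housekeeping scaling.

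Capillarization would be seen as sinusoidal genes going down and vascular genes going up, so the difference between them was taken in each liver. The mean log2 CPM of Stab2, Lyve1, Clec4g and Fcgr2b minus that of Cd34, Plvap and Vwf was -0.16, 0.33 and 0.13 in sgCtrl livers 5.1, 7.1 and 7.2. It was 0.34, 0.31 and -0.34 in sgPrdx2 livers 1.1, 1.3 and 3.2. Group means were 0.10 ± 0.25 and 0.10 ± 0.38 (SD, n = 3 each), a difference of 0.01, far smaller than the spread within either group. The sinusoidal mean was lower in sgPrdx2 livers by 0.37 (5.56 ± 0.10 against 5.19 ± 0.30 mean log2 CPM). The vascular mean was lower by the same 0.37 (5.46 ± 0.16 against 5.09 ± 0.09). Members did not share these falls evenly. By log2 fold change Lyve1 was at -1.23, beside -0.30 for Fcgr2b, -0.13 for Clec4g and 0.27 for Stab2. Vwf was at -0.74, beside -0.29 for Cd34 and -0.12 for Plvap.

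The balance was not the same within a group. Liver 3.2 had the most vascular-leaning balance of the 6, with the lowest sinusoidal level (4.85), and sgCtrl 5.1 came next with the highest vascular level (5.61). The difference between groups was 0.23 without sgPrdx2 3.2 and -0.13 without sgCtrl 5.1, and it ran from -0.20 without Stab2 to 0.32 without Lyve1 among the 7 genes. Its sign thus rested on single livers and single genes. As a score over chosen genes, it was given no test.

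**Figure D3:**
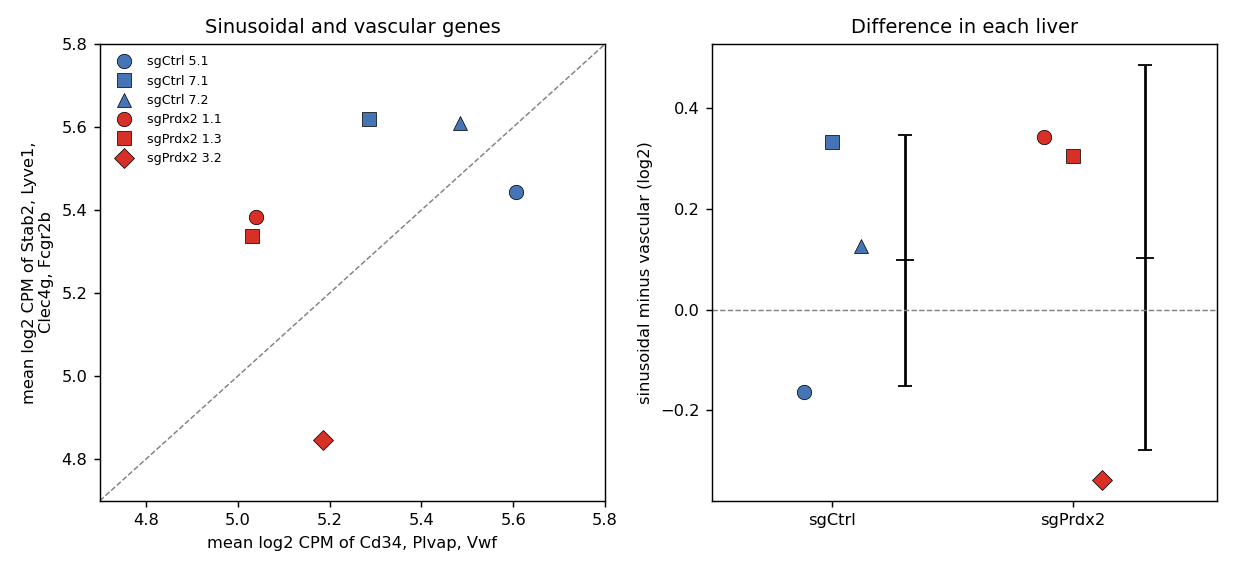
Left, mean log2 CPM of the 4 sinusoidal identity genes (vertical) against that of the 3 vascular genes (horizontal) in each liver, with equal levels on the dashed line. Right, the difference between them by group with mean and SD, where both means are at 0.10 and sgPrdx2 liver 3.2 is the lowest point at -0.34.

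To ask whether each gene moved with other endothelial genes, its CPM was divided by the summed CPM of 22 pan-endothelial genes. That sum was 474 ± 24.2 CPM in sgCtrl and 395 ± 15.5 CPM in sgPrdx2 livers (SD, n = 3 each), lower in all 3 sgPrdx2 livers (two-sided exact permutation p = 0.1, the smallest possible). Against it, Lyve1 was lower by 1.04 and Pecam1 by 0.52 on the log2 scale in sgPrdx2 livers, both without overlap between groups (exact permutation p = 0.1 each). Vwf had a difference of -0.46 and Stab2 of 0.51, both with overlapping groups (exact permutation p = 0.3 and 0.2). Fcgr2b (-0.04), Cd34 (-0.02) and Stab1 (0.02), which were low in CPM, stood near 0 relative to the sum. Clec4g and Plvap were each at 0.14, and Kdr was at -0.14. Over these 10 comparisons the smallest Benjamini-Hochberg adjusted p was 0.5, and with exact p-values of at least 0.1 none could have passed 0.05. The choice of denominator mattered. Genes with high levels weigh most in the sum, and Eng alone (log2 fold change -0.14) held 151 CPM of it in sgCtrl and 138 CPM in sgPrdx2 livers. When the mean log2 CPM of the 22 genes replaced their sum, Fcgr2b, Cd34 and Kdr took the other sign (0.10, 0.12 and 0.01). On that scale Lyve1 was at -0.90 and Pecam1 at -0.38, still without overlap, and Vwf was at -0.32. Stab2 (0.65), Plvap (0.29) and Fcgr2b were then higher in every sgPrdx2 liver (exact permutation p = 0.1 each), and Clec4g was at 0.29 and Stab1 at 0.16 with overlap.

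**Figure D4:**
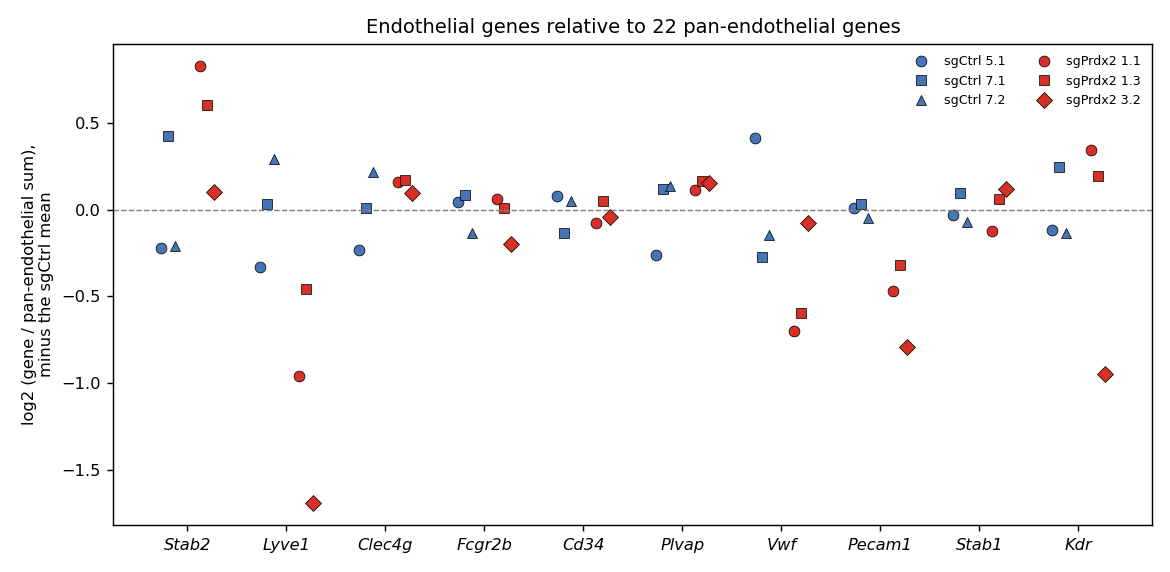
Log2 of each gene's CPM over the summed CPM of 22 pan-endothelial genes in each liver, minus the mean of the sgCtrl livers (vertical axis), for the 10 genes along the horizontal axis. Lyve1 and Pecam1 lie below all sgCtrl livers in every sgPrdx2 liver, while Fcgr2b, Cd34 and Stab1 scatter around 0.

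Other genes of sinusoidal, vascular and capillarized endothelium were read from the same fit, and each list is given as called counts and medians. Every list below is to be set beside the shares of all genes tested. These were 17.5% lower and 16.7% higher without overlap and 24.9% at an unadjusted p under 0.05. By edgeR's test 1.54% were called lower and 1.79% higher, and DESeq2 called 6.07% of 14799 genes lower. Of 20 other sinusoidal genes, 0 were called in either direction by edgeR's test, with 6 at an unadjusted p under 0.05 and 4 called lower by DESeq2, 19 of 20 were below 0, 5 were lower without overlap, and the median log2 fold change was -0.30. The smallest p-values belonged to Plxnc1, a semaphorin receptor, at -0.64 (SE 0.17, adjusted p = 0.0772), and Wnt9b, a Wnt ligand made by central vein and sinusoidal endothelium, at -0.72 (SE 0.22, adjusted p = 0.106). The log2 fold changes of the list ran from -0.75 to 0.04, and all 20 genes had at least 70 counts in every liver. Its summed level was 1961 ± 618 CPM in sgCtrl and 1592 ± 166 CPM in sgPrdx2 livers, with overlap (exact permutation p = 0.5). Most of that sum was Ctsl alone, at 1429 ± 598 CPM in sgCtrl and 1167 ± 205 CPM in sgPrdx2 livers. The sum therefore says little of the other genes in the list.

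Of 22 pan-endothelial genes, 19 were below 0, 9 were lower without overlap and the median was -0.40. Thbd, the thrombomodulin gene of the anticoagulant surface, was the only one called. It was at 14.4, 13.4 and 15.4 CPM in sgCtrl and 6.08, 6.58 and 4.79 CPM in sgPrdx2 livers, with no overlap. Thbd fell by 1.302 on the log2 scale (SE 0.16, adjusted p = 0.0313 by edgeR's quasi-likelihood test), and it was still called without sgCtrl 7.1 or sgPrdx2 3.2 and lost without any of the other 4 livers.

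Because capillarization is known to bring genes of continuous capillaries and basement membrane, these were listed together with genes of activated endothelium. In whole liver other cells also make some of them, and the part of endothelium in their levels was not tested. Of 23 tested, 20 were below 0, 11 were lower without overlap, 0 were called higher and 2 were called lower, with a median of -0.60. The 2 called were Vcam1 and Col4a1. Vcam1, a leukocyte adhesion molecule, was at 96.4, 78.0 and 81.7 CPM in sgCtrl and 49.5, 47.7 and 33.5 CPM in sgPrdx2 livers and fell by 0.97 on the log2 scale (SE 0.18, adjusted p = 0.0409 by edgeR's quasi-likelihood test). Col4a1, a chain of basement membrane collagen also made by stellate cells, was at 219, 286 and 337 CPM in sgCtrl and 149, 158 and 115 CPM in sgPrdx2 livers and fell by 0.997 (SE 0.20, adjusted p = 0.0466). Without liver 3.2 Vcam1 was called and Col4a1 was not, and without any other single liver neither was. The summed CPM of this list was 1763 ± 177 in sgCtrl and 1162 ± 57.3 in sgPrdx2 livers, without overlap (exact permutation p = 0.1, the smallest possible). Its largest parts were the matrix genes Sparc (540 CPM in sgCtrl and 364 in sgPrdx2), Col4a1 (281 and 141) and Col4a2 (206 and 122). Apln was below the filter on low counts.

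Among 13 ligands and receptors of the VEGF and angiopoietin pathways, 9 were below 0, 6 were lower without overlap and the median was -0.39. Their summed level overlapped between groups, at 332 ± 22.5 in sgCtrl and 310.2 ± 29.4 CPM in sgPrdx2 livers (exact permutation p = 0.5). Nrp2, a co-receptor for VEGF family ligands, was called. It was at 33.9, 33.5 and 30.6 CPM in sgCtrl and 20.4, 20.4 and 19.1 CPM in sgPrdx2 livers, and fell by 0.71 on the log2 scale (SE 0.11, adjusted p = 0.0358 by edgeR's quasi-likelihood test). The call held without liver 3.2 and was lost without any other liver. Of 6 lymphatic genes, 0 were called by edgeR's test, with 2 at an unadjusted p under 0.05 and 1, Mmrn1, called by DESeq2, and the median was -0.29. The lymphatic sum was 185 ± 11.7 and 177 ± 39.6 CPM, with overlap (exact permutation p = 0.9). Most of it was Prox1 (63.6 CPM in sgCtrl and 63.4 in sgPrdx2) and Reln (72.6 and 80.6 CPM), which is also in the stellate list. The sum therefore says little of the other lymphatic genes. Mmrn1, a multimerin, was at -2.46 (SE 0.76, adjusted p = 0.107). It was highest in sgCtrl 5.1 with 5.802 CPM, beside 0.951 and 1.29 CPM in the other sgCtrl livers. The sgPrdx2 livers were at 0.205, 0.610 and 0.645 CPM, without overlap. Flt4, the receptor for VEGF-C, was at -0.50 (SE 0.17, adjusted p = 0.129).

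Markers of other liver cells moved in the same libraries, where 17.5% of all genes tested were lower and 16.7% higher without overlap. Of 7 hepatocyte genes, 4 were called higher and 6 were higher without overlap, with a median of 0.97, led by Ttr at 1.35 (SE 0.24, adjusted p = 0.0394), Serpina1c at 1.24 (SE 0.25, adjusted p = 0.0466) and Apoa1 at 1.15 (SE 0.23, adjusted p = 0.0466 by edgeR's quasi-likelihood test). Without liver 3.2 Ttr and Apoa1 were still called, and leaving out any other liver left no hepatocyte gene called. Their summed level ranged from 74133 to 80965 CPM in sgCtrl and from 126531 to 171527 CPM in sgPrdx2 livers. Of 14 macrophage and Kupffer cell genes, all were below 0, 5 were lower without overlap, and Mpeg1, a pore-forming protein of macrophages, was called at -0.82 (SE 0.14, adjusted p = 0.0394), a call that held without 3.2 and was lost without any other liver. The summed macrophage level ranged from 4171 to 4911 CPM in sgCtrl and from 3025 to 4047 CPM in sgPrdx2 livers. Of 10 stellate, mural and fibroblast genes, 8 were below 0, 4 were lower without overlap, 5 had an unadjusted p under 0.05 and 0 were called by edgeR against 3 by DESeq2, with a median of -0.56 and a summed level of 742 to 873 against 608 to 629 CPM. Rgs5, a pericyte gene, was at -0.62 (SE 0.14, adjusted p = 0.0574), and Acta2, smooth muscle actin, was at -1.49 (SE 0.35, adjusted p = 0.0584).

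Of 6 B cell genes, 0 were called by either tool, with 1 at an unadjusted p under 0.05, and the summed level was 52.3 to 64.9 in sgCtrl and 54.4 to 66.6 CPM in sgPrdx2 livers. Cd79b was at 0.44 (SE 0.18, adjusted p = 0.187). Of 3 platelet genes tested, 0 were called by either tool or passed at an unadjusted p under 0.05, and the sum of all 6 was 9.85 to 13.5 in sgCtrl and 9.78 to 14.6 CPM in sgPrdx2 livers. Ppbp was at -0.62 (SE 0.31, adjusted p = 0.256) and Itga2b at 0.26 (SE 0.19, adjusted p = 0.405). Pecam1 and Vwf are also made by platelets, Fcgr2b by B cells and macrophages, and Stab1 by macrophages. Summed hepatocyte levels were higher in sgPrdx2 livers, opposite to the endothelial values, while summed macrophage and stellate levels were lower. The part of these cells in the lower endothelial levels was not tested.

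**Figure D5:**
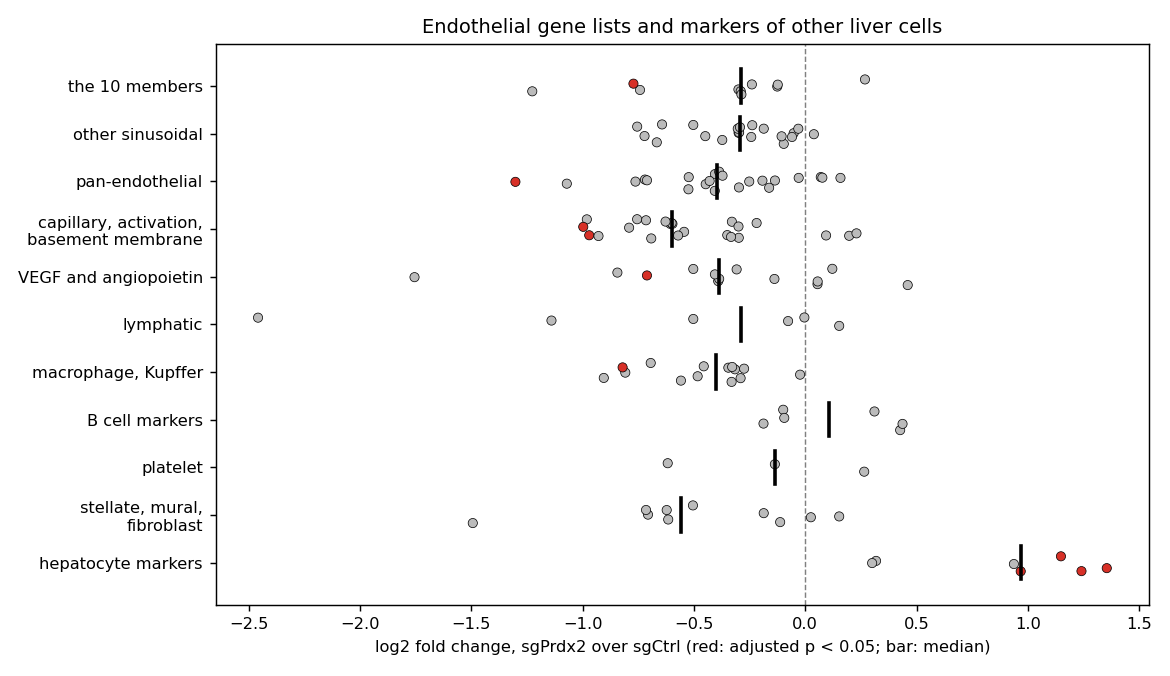
Log2 fold change, sgPrdx2 over sgCtrl (horizontal axis), of each tested gene in the 10 members, the other endothelial lists and the markers of other liver cells, with called genes in red and the median of each list as a bar. Endothelial, macrophage and stellate lists have medians from -0.60 to -0.29, and the hepatocyte list is at 0.97.

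Profiles across the 6 livers were compared as a description, over n = 6 points that share library, depth and the difference between groups. Lyve1 and Pecam1 were the most alike pair (r = 0.94 of log2 CPM), Fcgr2b was also most like Pecam1 (0.91), and Clec4g and Plvap, of opposite classes, were most like each other (0.88). Vwf was most like Stab1 (0.86), Cd34 most like Vwf (0.82) and Kdr most like Fcgr2b (0.79). Stab2 was set apart, with its highest r at 0.57, to Kdr, and its lowest at -0.74, to Vwf. Of 14111 genes with at least 1 CPM on average, those most like the mean of the sinusoidal identity genes were Cdh5, the VE-cadherin of endothelial junctions, Golga1, Gatm, Pdgfc and Rad18 (r from 0.996 to 0.998). Those most like the mean of the vascular genes were Ppp2r2a, Mcoln2, Ms4a6d, Selplg and Gla (r of at least 0.993). With 6 points, the names only list the closest profiles.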

How the data were processed

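RNA-Seq of 6 whole livers was analysed, 3 sgCtrl and 3 sgPrdx2, grouped by the sample labels. The authors deposited whole-number counts of reads per gene without normalization. The submitters' processing notes name HISAT2, HTSeq, DESeq2 and the build GRCm38. Versions, annotation and strandedness are not given in the sources used here, so overlapping and antisense genes may share reads. The authors' table of their own DESeq2 comparison (mean, fold change and p-values) was not used.

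For the comparison edgeR 4.0.16 (R 4.3.3) was used. Low genes were dropped by filterByExpr (minimum count 10), and counts were normalized by TMM and compared by the quasi-likelihood test with Benjamini-Hochberg adjustment over 17032 genes, called at an adjusted p under 0.05. The biological coefficient of variation was 0.213. SE was obtained from the fold change and F of each gene, and 95% intervals use the fit's degrees of freedom. Single values were compared by exact permutation tests (two-sided), which with 3 against 3 cannot go below 0.1. Lengths and positions are from GENCODE and RefSeq on GRCm38.p6, which need not be the authors' annotation. Fits were tested on simulated data. Each liver came from its own mouse.

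The members, lists and tests were chosen with earlier results of these data known. Genes named from other lists are those called (the 3 with the smallest p where over 3 were), or the 2 with the smallest p where none was. Some results under this rule are not reported here. Flt4, Tek, Tie1 and Reln count in each list that holds them. The settings varied were the normalization (RLE, upper quartile), scaling to 6 housekeeping genes or to pan-endothelial counts, no filter, at least 10 counts in every liver, DESeq2 1.42.0, a length and GC correction, adjusted p under 0.01, and leaving out each liver. The hepatocyte marker Tf was not analysed here.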

Additional observations from a re-analysis of the deposited data

How the results depend on the processing

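In CPM, 9 of 10 members stayed below 0 under RLE and upper-quartile normalization, both count filters, DESeq2 and the length and GC correction, with a median from -0.30 to -0.19. All genes called were 305 higher and 262 lower, members called lower were 1, and genes of the other lists called were 4 higher and 5 lower. Housekeeping scaling gave 70 and 919, 2 members, and 2 and 24 list genes. With no filter they were 644 and 484, 2, and 16 list genes lower. With DESeq2 they were 1168 and 898, 3, and 26 list genes lower. With the length and GC correction they were 552 and 463, 2, and 17 list genes lower. At an adjusted p under 0.01 nothing was called (0 higher, 0 lower, 0 members), beside 4241 genes at an unadjusted p under 0.05. Leaving out each liver gave 0 to 324 genes higher and 0 to 295 lower, 0 to 1 members, and 0 to 2 list genes higher and 0 to 8 lower, with 0 calls without 5.1, 7.2, 1.1 or 1.3 although 3114 to 3993 genes had an unadjusted p under 0.05.

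Stab2 reversed under housekeeping scaling (-0.077), and Kdr without liver 3.2 (from -0.56 to 0.034 over the livers left out). Scaled to pan-endothelial counts, which put the median of all genes at 0.24, Clec4g (0.13), Plvap (0.13) and Stab1 (0.023) reversed, and Pecam1 was no longer called (adjusted p = 0.0584 by edgeR). Relative to the pan-endothelial list, the mean log2 level in place of the sum gave 0.10 for Fcgr2b, 0.12 for Cd34 and 0.0053 for Kdr. Leaving out each liver gave -0.11 to 0.036 for Fcgr2b (0.0023 without 7.1), -0.088 to 0.021 for Cd34 (0.0060 without 7.2, 0.0069 without 1.1), -0.028 to 0.093 for Stab1 (-0.013 without 7.2, -0.00019 without 1.3) and -0.38 to 0.27 for Kdr. The cause was not tested. With 3 livers a group, the intervals above limit what could be seen.

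No paired analysis was possible because the labelled mouse numbers of the groups share none.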
